A study of Rattus norvegicus with 8 samples.

Results

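The 9 genes described here encode enzymes that make heme (Alas2, Alad, Uros, Urod, Cpox, Ppox and Fech) or break it down (Hmox1 and Blvrb). They were taken by gene name from a table of RNA sequencing counts that listed 17446 genes, of which 5754 had no count in any library, and all 9 were present and passed edgeR's low-count filter in each of the 6 comparisons. The counts came from whole blood of male wild type Wistar rats, 12 to 14 weeks old at the start, in 4 groups of 2 libraries each. In the AngII model, an osmotic minipump delivered angiotensin II at 0.4 mg/kg per day, and blood was drawn at week 1 (before) and at week 5 (after) of the model. In the DOCA–HS model, deoxycorticosterone acetate was injected subcutaneously at 100 mg/kg once a week with 0.9% NaCl and 1% KCl in the drinking water, and blood was drawn at week 3 (before) and week 7 (after). Between the draws the rats received Chios mastic gum (CMG), the resin of Pistacia lentiscus var. Chia, by mouth at 220 mg/kg each day. All 8 libraries therefore carry a hypertension model, and libraries from vehicle-treated or untreated rats were not analysed here, so CMG and further weeks of the model cannot be told apart. The labels give cardiac puncture as the route for every library, while the study's methods describe repeated blood sampling of living rats, so whether the before and after libraries came from the same rats, and by which route, is not settled. The labels give no rat for a library, so p-values measure only the spread between these samples, which may be technical.

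Heme is assembled along a chain of enzymes that starts in the mitochondrion, passes through the cytosol and ends in the mitochondrion, where iron is inserted. The erythroid precursors that fill red cells with hemoglobin are the main site of this synthesis in the blood lineage. Mature red cells have neither nucleus nor mitochondria, and in blood the RNA of these enzymes is carried largely by reticulocytes, the youngest circulating red cells. Heme oxygenase opens the ring of spent heme to biliverdin, mainly in macrophages, and biliverdin is then reduced to bilirubin.

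Promoter sequences are shown for the 4 members that share a motif with another member. RefSeq gave a window for 7 of the 9 members (Alas2, Alad, Uros, Urod, Ppox, Fech and Blvrb) on build GRCr8, and the 250 bases before the start were searched on both strands for 5 motifs. Because the counts were made on build rn6, the coordinates belong to the sequences only. The motif AGATAA, read by GATA factors, was found in the windows of Alas2 and Fech, the enzymes at the start and at the end of the chain, and in 10.3% of all 33469 promoter windows. The matches lay 136 to 131 bases before the start of Alas2 and 135 to 130 bases before that of Fech, where the reverse complement stands on the printed strand. The motif CACGTG, an E-box, was found in Alad and Urod, 223 to 218 and 75 to 70 bases before the start, and in 5.59% of all windows. Capitals mark the match in each stretch of 60 bases, written 5′ to 3′ along the gene.
Alas2 (chrX:22895287-22895346, plus strand): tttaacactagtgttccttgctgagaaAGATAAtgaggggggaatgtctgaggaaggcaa
Fech (chr18:60248628-60248687, minus strand): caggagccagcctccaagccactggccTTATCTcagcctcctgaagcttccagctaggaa
Alad (chr5:80988092-80988151, minus strand): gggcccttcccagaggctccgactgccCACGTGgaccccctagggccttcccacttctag
Urod (chr5:135705423-135705482, minus strand): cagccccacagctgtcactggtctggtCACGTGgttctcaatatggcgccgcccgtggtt
The start used for Alas2 lies inside its annotated gene span, as do those of Uros and Ppox, so each of these windows belongs to 1 of several possible starts. CCACCC, read by KLF factors, was found in Blvrb (26.1% of all windows), while TGACTCA (4.05%) and TGACNNNGC (10.1%) were found in no member window. A match is a stretch of letters and was not tested for binding.

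Total counts ranged from 4149104 to 13205565 per library. Replicate 2 of the DOCA–HS after group stood apart from the other 7 libraries. Hemoglobin counts made up 84.3% of its total, against 61.9 to 71.0% elsewhere, which left 651764 counts for all other genes, against 2195735 to 4490083. Its TMM factor, by which edgeR rescales a library so that most genes line up, was 0.343, against 0.776 to 1.88. In this library the summed level of T cell markers was 54.5 on the counts-per-million scale (CPM, relative to all counts of the library), against 142 to 438 in the others, that of B cell markers 11.1 against 41.4 to 184, and that of monocyte markers 143 against 324 to 938. The part of this cell composition in the enzyme results was not tested, and the changes after CMG that rest on the library are also given without it. Levels below are CPM of all counts unless another scale is named, and fewer cells of a type and less RNA per cell cannot be told apart in bulk blood.

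The blood was rich in erythroid RNA, and the enzymes at both ends of the chain were among its most counted genes. Alas2 ranked between place 3 and place 5 of all genes in each library, and Fech between place 16 and place 32, by counts not divided by transcript length. The 9 members together held 1.23% of all counts in the DOCA–HS after replicate 2 library and 1.48 to 1.90% in the other 7, and Alas2 alone made up 83.1% of the member counts in that library and 86.8 to 90.3% in the others. Hmox1, at 0 to 45 counts, was the member with the fewest counts in every library. The 10 erythroid markers in the table were present in every library, with a summed level without Hbb of 7816 CPM in DOCA–HS after replicate 2 and 9783 to 12870 CPM in the others. The plot of summed markers sets the synthesis enzymes beside these cell types.

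**Figure D1:**
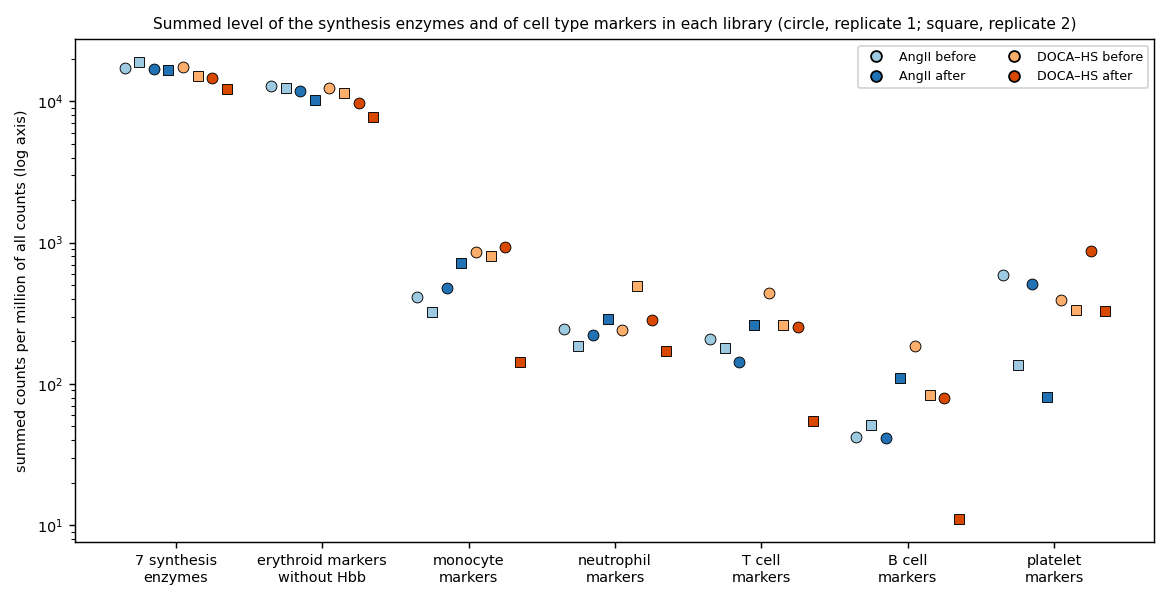
Summed level of the 7 synthesis enzymes and of cell type markers in each of the 8 libraries, in CPM of all counts on a log axis; each point is 1 library, coloured by group, with circles for replicate 1 and squares for replicate 2. The DOCA–HS after replicate 2 square is the lowest point for the synthesis enzymes (12271 CPM), the erythroid markers (without Hbb) and the monocyte, neutrophil, T cell and B cell markers, but not for the platelet markers.

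Alas2 encodes the erythroid form of the enzyme that joins glycine with succinyl-CoA, the rate-limiting step. It stood at 15108 and 16950 CPM before and 14830 and 15030 CPM after CMG administration in the AngII model, and at 15443 and 13400 CPM before and 13023 and 10242 CPM after in the DOCA–HS model. In TMM-scaled CPM the groups overlapped in both models, but in CPM of all counts both after libraries lay below both before libraries in each. Of all genes tested, 4.43% in AngII and 23.9% in DOCA–HS had the latter order. The highest level over the 8 libraries was 1.66 times the lowest, or 1.30 times without DOCA–HS after replicate 2.

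Alad encodes the dehydratase that forms the pyrrole unit, and Uros and Urod act on the ring made from it, Uros by closing it and Urod by trimming its side chains. Alad was at 39.2 and 37.8 CPM before and 45.3 and 24.7 CPM after in the AngII model, and at 35.5 and 24.2 CPM before and 43.4 and 37.8 CPM after in the DOCA–HS model. Both DOCA–HS after libraries were above both before libraries, against 1.40% of all genes tested, while the AngII groups overlapped. Uros was at 14.5 and 7.60 CPM before and 13.5 and 9.05 CPM after in the AngII model, and at 15.2 and 8.68 CPM before and 24.0 and 6.99 CPM after in the DOCA–HS model. Its highest and lowest levels of all 8 libraries were thus the pair of DOCA–HS after libraries, and the groups overlapped in both models. Urod was at 230 and 172 CPM before and 233 and 122 CPM after in the AngII model, and at 199 and 143 CPM before and 126 and 86.3 CPM after in the DOCA–HS model. The DOCA–HS after libraries were the lower ones without overlap, against 23.9% of all genes tested. The AngII after libraries lay on either side of the before libraries.

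Cpox and Ppox carry out the oxidations that lead to protoporphyrin, and Fech, the ferrochelatase, inserts the iron. Cpox was at 9.84 and 11.7 CPM before and 12.1 and 9.66 CPM after in the AngII model, and at 15.8 and 11.1 CPM before and 13.4 and 10.1 CPM after in the DOCA–HS model, with overlap in both. Ppox was at 36.6 and 16.4 CPM before and 37.0 and 14.4 CPM after in the AngII model, and at 29.4 and 16.1 CPM before and 29.0 and 9.16 CPM after in the DOCA–HS model. The group means ran from 19.1 to 26.5 CPM, and in every group the replicates lay further apart than these means. Fech was at 1828 and 1738 CPM before and 1800 and 1350 CPM after in the AngII model, and at 1852 and 1607 CPM before and 1472 and 1879 CPM after in the DOCA–HS model. Its highest level over all 8 libraries was 1.39 times the lowest, or 1.37 times without DOCA–HS after replicate 2, which had the highest Fech level and the lowest Alas2 level of the 8.

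Hmox1 encodes the inducible heme oxygenase and Blvrb biliverdin reductase B, an abundant red cell protein also known as flavin reductase. Hmox1 had 45 and 6 counts before and 19 and 38 after in the AngII model, and 26 and 18 before and 44 and 0 after in the DOCA–HS model. The 0 of DOCA–HS after replicate 2 has a 95% Poisson interval that reaches 3.69 counts, or 0.889 CPM, which covers counting error only. Blvrb was at 130 and 112 CPM before and 98.9 and 85.5 CPM after in the AngII model, and at 101 and 77.9 CPM before and 74.7 and 46.8 CPM after in the DOCA–HS model. In CPM of all counts, Blvrb was the member, with Alas2, whose after libraries lay below the before libraries in both models. Of all genes tested, 4.43% had this order in AngII and 23.9% in DOCA–HS, and those with it in both were not counted. In TMM-scaled CPM, Blvrb kept it in AngII only and Alas2 in neither model.

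**Figure D2:**
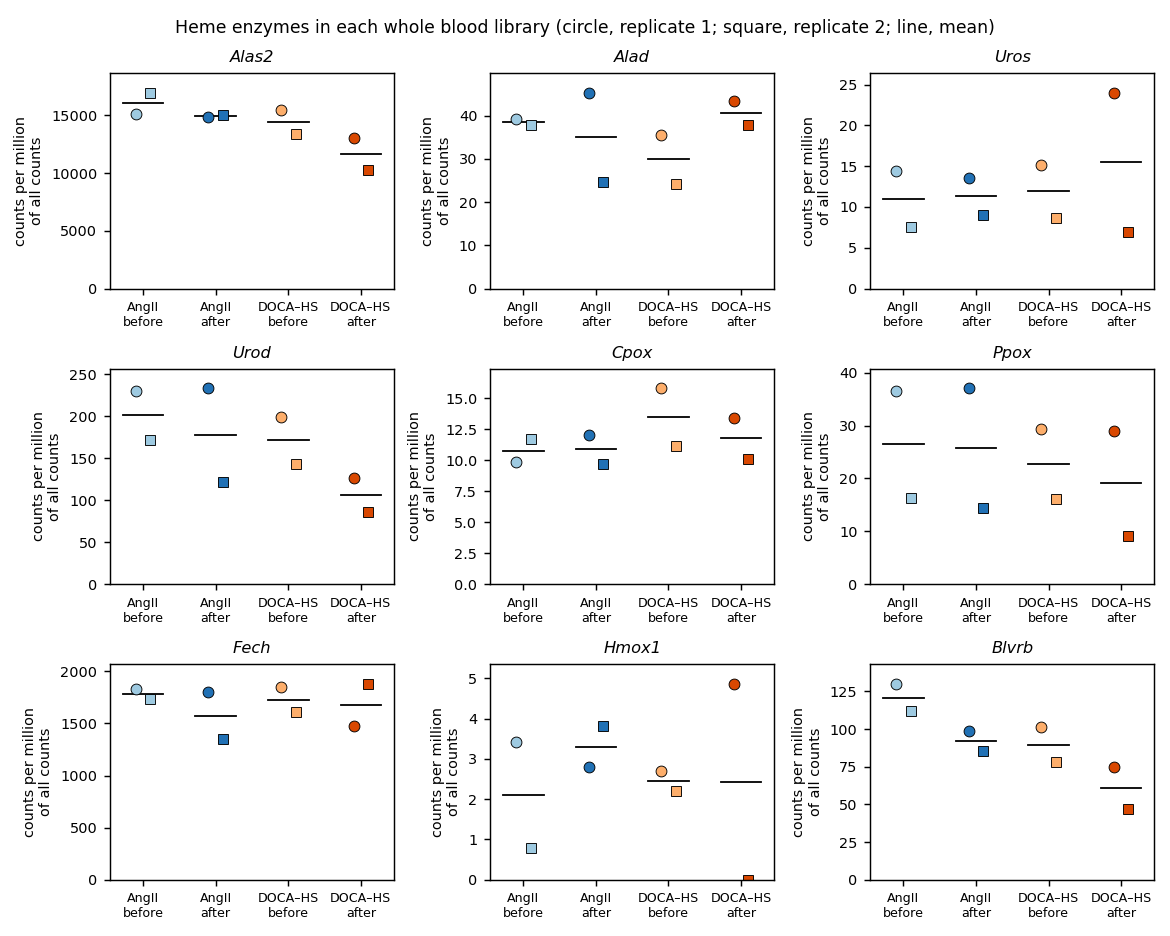
Level of each of the 9 enzymes in the 8 whole blood libraries, in CPM of all counts on linear axes that start at 0; circles are replicate 1, squares replicate 2 and lines group means of 2 libraries. Alas2 and Blvrb show both after points below both before points in each model, against 4.43% of all genes tested in AngII and 23.9% in DOCA–HS. Alad shows this order reversed in DOCA–HS, against 1.40% of all genes tested. Uros and Ppox show pairs of replicates that lie far apart.

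In the AngII model, none of the 9 enzymes passed the criterion of a log2 fold change beyond 1.5 with an unadjusted p of at most 0.05, which 1.24% of the 7201 genes tested passed in either direction (edgeR quasi-likelihood test on TMM-scaled counts). Blvrb had the largest difference, with a log2 fold change of −0.69 ± 0.38 (SE, n = 2 and 2, edgeR adjusted p = 0.774). Alas2 was at −0.44 ± 0.71 and Fech at −0.46 ± 0.52, while Urod, Alad, Cpox, Uros and Ppox lay between −0.40 and −0.22 and Hmox1 at 0.25 ± 0.53. Of the 9, 8 were below 0, with a median of −0.38, against −0.01 over all genes tested, and Benjamini-Hochberg adjusted p-values ran from 0.774 to 0.939. Scaled to total counts, to counts outside hemoglobin or to hemoglobin counts, Uros and Cpox changed side, to between 0.004 and 0.047, and the other members kept theirs. With total-count scaling the median of the members was −0.10, against 0.36 over all genes tested.

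The 2 libraries after CMG in the AngII model gave unlike pictures. Without after replicate 1, 5 members had an adjusted p under 0.05 (edgeR), namely Urod at −1.40, Ppox at −1.53, Alad at −1.33, Fech at −1.09 and Blvrb at −1.18 on the log2 scale, but only Ppox passed 1.5, and the lone after library was then assumed to vary like the pair before. In that fit 4.97% of the 8102 genes tested passed the criterion and 3.47% had an adjusted p under 0.05. Without after replicate 2, Alad, Uros, Urod, Cpox and Ppox stood between 0.09 and 0.45 instead. The members' median moved to −1.09 when after replicate 1 was left out and to 0.16 when replicate 2 was. Hmox1 depended on the before libraries, from −0.31 without before replicate 2 to 1.52 without before replicate 1. The latter value rests on 1 before library with 6 counts. On the scale of TMM-scaled CPM, both after libraries were below both before libraries for Blvrb only, against 18.5% of all genes tested, and no member was above, against 21.3%. On the scale of total counts, this held for Alas2 and Blvrb, 2 of 9, against 4.43% of all genes below and 31.4% above.

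In the DOCA–HS model, 1 of the 9 enzymes, Alad, passed the same criterion, against 2.05% of the 7720 genes tested. Its log2 fold change after CMG administration was 1.80 ± 0.66 (SE, n = 2 and 2, edgeR adjusted p = 0.997), and with total-count scaling it was 0.44 and did not pass. Uros, at 1.23 ± 0.43 (edgeR adjusted p = 0.997), met the unadjusted p of the criterion but not the fold. Fech was at 1.46 ± 0.96, Cpox at 1.02 ± 0.59, Alas2 at 0.98 ± 1.15, Ppox at 0.64 ± 0.44, Blvrb at 0.63 ± 0.59, Hmox1 at 0.62 ± 0.72 and Urod at 0.56 ± 0.63, none of them past the criterion. All 9 were above 0 with TMM scaling, with a median of 0.98 against −0.04 over all genes tested, but with total-count scaling 6 of these 9, Alas2, Urod, Cpox, Ppox, Fech and Blvrb, were below 0, with a median of −0.19 against −0.76 over all genes. Scaled to hemoglobin counts, Hmox1 joined these 6, and only Alad and Uros were above 0, at 0.26 and 0.27.

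Replicate 2 of the DOCA–HS after group decided most of these values. Without it, Alas2 was at −0.13, Urod at −0.38, Fech at −0.21 and Blvrb at −0.22 on the log2 scale with TMM, and Alad, at 0.61, no longer passed. Uros stayed at 1.10, a value that rests on 1 after library with 217 counts against 146 and 71 before. The Alad call was also lost without before replicate 1 (1.73) and without before replicate 2 (1.89), in both cases by its p. Without after replicate 1, 4 members passed (Alad, Cpox and Fech above 0 and Hmox1 below 0), and 5 had an adjusted p under 0.05 (edgeR). In that fit, which rests on replicate 2 as the lone after library, 21.1% of the 8126 genes tested passed and 14.4% had an adjusted p under 0.05. On TMM-scaled CPM, the after libraries were above the before libraries for Alad, Uros and Ppox, against 14.7% of all genes tested, and below for none, against 21.1%. On total counts they were above for Alad alone, against 1.40%, and below for Alas2, Urod and Blvrb, against 23.9%.

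**Figure D3:**
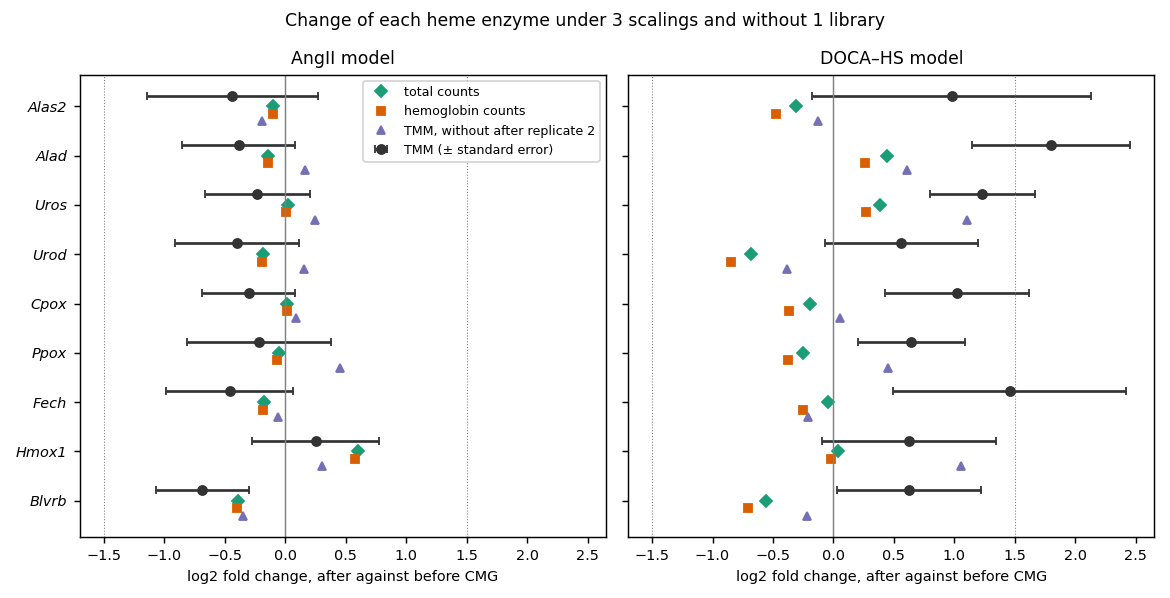
log2 fold change after against before CMG for each of the 9 enzymes, in the AngII model (left) and the DOCA–HS model (right); black points are the edgeR values with TMM scaling and their standard errors, and coloured points the values with total counts, with hemoglobin counts and without after replicate 2. Dotted lines stand at 1.5 in either direction. In DOCA–HS the black points run from 0.56 to 1.80 while most of the points with total or hemoglobin counts lie below 0, and those without after replicate 2 run from −0.38 to 1.10.

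In a fit of all 8 libraries, Alad was the member that passed the same criterion for a difference between the models in the change after CMG. The DOCA–HS change minus the AngII change was 2.20 for Alad and 1.47 for Uros, which met the unadjusted p of the criterion but not the fold, and both had an edgeR adjusted p of 0.881. The criterion was passed by 3.16% of the 7994 genes tested. With 1 library left out, the Alad difference ran from 1.02 to 3.07, and whether it passed depended on the library. The 9 members ranged from 0.39 to 2.20, with a median of 1.33 against −0.12 over all genes, and with total-count scaling the median was −0.20 against −1.21, with no member past the criterion. Averaged over both models, no member passed, with values from −0.05 to 0.68 and a background of 0.325%, and without DOCA–HS after replicate 2 the values ran from −0.52 to 0.57, with the median moving from 0.31 to −0.18 and 4 of the 9 changing side. The AngII and DOCA–HS contrasts share no library, while the difference and the average draw on all 8.

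Before CMG, all 9 members had a lower value in DOCA–HS than in AngII rats on the TMM scale, from −1.20 to −0.47 on the log2 scale with a median of −0.92, and none passed the criterion, against 0.838% of all genes. Blvrb, at −1.20, was the only member to meet the unadjusted p of the criterion, and edgeR adjusted p-values ran from 0.992 to 0.994. With total-count scaling, Uros, Cpox and Hmox1 were above 0 in the same comparison and the median was −0.15 against 0.86 over all genes. Both DOCA–HS before libraries lay below both AngII before libraries for 8 of the 9 members (all but Hmox1) in TMM-scaled CPM, against 21.2% of all genes tested, and for Alad and Blvrb in total-count CPM, against 2.1%. After CMG, 6 members were above and 3 below 0, with a median of 0.52, none passed the criterion, against 1.40% of all genes, and the median was −0.32 without DOCA–HS after replicate 2. The weeks of the models differ, so model and time cannot be told apart here.

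Ratios of counts within a library do not depend on how libraries are scaled. Per 1000 Alas2 counts there were 2.60 and 2.23 Alad counts before and 3.05 and 1.65 after in the AngII model, and 2.30 and 1.81 before and 3.34 and 3.70 after in the DOCA–HS model. The DOCA–HS after libraries were the highest of all 8, and Alad was the only one of the 8 other members whose ratio lay above without overlap, against 3.91% of the 7719 other genes tested. Urod gave 12.9 and 10.7 per 1000 Alas2 counts before and 9.69 and 8.43 after in DOCA–HS, and Blvrb 6.55 and 5.82 before and 5.74 and 4.57 after, both lower after without overlap, 2 of 8 members against 19.4% of those genes. In the AngII model no member's ratio to Alas2 separated before from after, against 2.18% of 7200 genes below and 35.5% above. Uros reached 1.84 per 1000 Alas2 counts in DOCA–HS after replicate 1, against 0.449 to 0.982 in the other 7 libraries.

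The balance between the last and the first enzyme set DOCA–HS after replicate 2 apart. Fech counts stood at 89.8 to 121 per 1000 Alas2 counts in 7 libraries and at 184 in this one, which is 1.51 times the nearest. Relative to Urod, Fech was at 7727 to 11660 counts per 1000 in the 7 and at 21780 here. The enzymes did not keep a common ratio in this library, with Fech and Alad high and Ppox and Blvrb low against Alas2. Alas2 itself was at 15.7 per 1000 Hbb counts here and at 21.5 to 35.7 elsewhere, and Blvra, the other biliverdin reductase, was at 82.5 per 1000 Blvrb counts here and at 506 in DOCA–HS after replicate 1, the lowest and the highest of the 8.

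**Figure D4:**
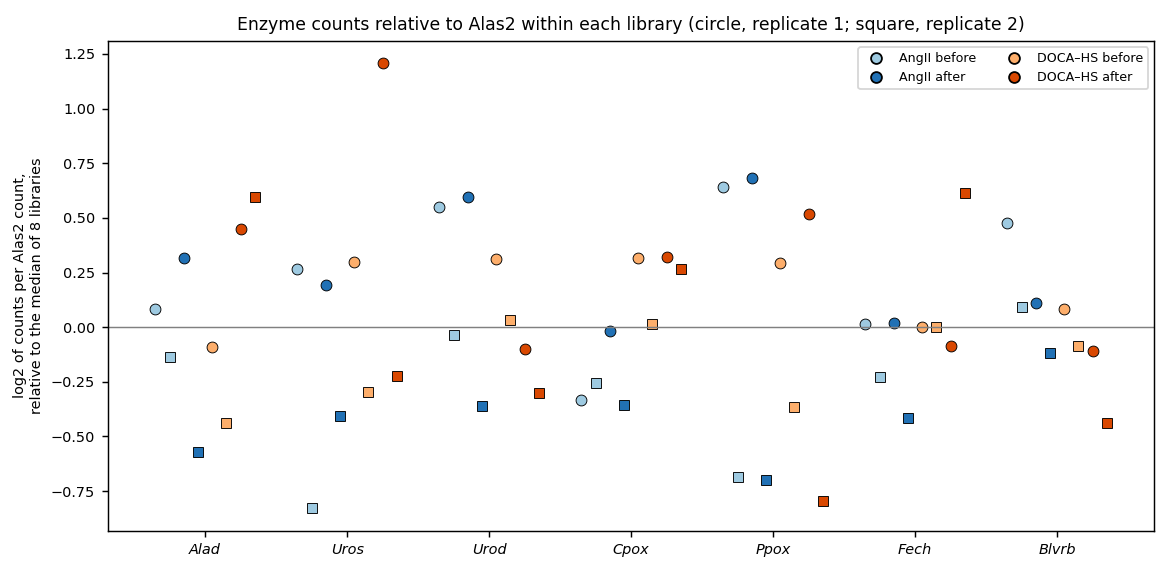
Counts of each enzyme per Alas2 count in the 8 libraries, on a log2 axis relative to the median of the 8; each point is 1 library, coloured by group, with circles for replicate 1 and squares for replicate 2. The DOCA–HS after points are the 2 highest for Alad, and its replicate 2 is the highest point for Fech and the lowest for Ppox and Blvrb.

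The other enzymes of the pathway and its partners, taken as fixed lists, gave few values past the test. Alas1, Hmox2 and Blvra did not pass in either model, at −0.07, 0.26 and 0.02 on the log2 scale in AngII and at −0.04, −0.40 and 0.49 in DOCA–HS. Alas1, the form used outside the erythroid lineage, had 11 to 46 counts in 7 libraries and 0 in DOCA–HS after replicate 2. Of 18 genes of mitochondrial import, export and iron-sulfur steps, 16 were tested and 0 passed, with medians of −0.43 in AngII and 0.76 in DOCA–HS. Of 19 genes of iron and heme uptake, storage and export, 14 were tested and 0 passed, with medians of −0.10 and 0.90. Here Hebp1, a heme-binding protein, was at 1.12 ± 0.47 in DOCA–HS (edgeR adjusted p = 0.997) and Slc11a1, a metal transporter of phagocytes, at 0.88 ± 0.36 in AngII. The positive medians in DOCA–HS share the scaling of that comparison, in which the median over all genes moved from −0.04 with TMM to −0.76 with total counts.

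Of 14 regulators, 13 were tested and 0 passed, with medians of −0.35 in AngII and 0.56 in DOCA–HS. Nfe2l2, which encodes the NRF2 factor that acts on Hmox1, was at 1.10 ± 0.29 in AngII (edgeR adjusted p = 0.628) and at 0.09 ± 0.56 in DOCA–HS, while Bach1, a repressor of Hmox1, was at −0.20 and 0.60. Eif2ak1, the heme-regulated kinase, was at −0.76 ± 0.50 in AngII, and Klf1, a factor of the erythroid lineage, at −0.38 and 0.44. Of the 10 erythroid markers, 0 passed in either model, with medians of −0.50 and 0.43. These had the directions of the members' medians (−0.38 and 0.98), as did the platelet markers (−0.30 and 1.26) and the mitochondrial, iron and regulator lists. The neutrophil, monocyte, T cell and B cell medians did not share both directions. Platelet markers passed for 2 of 5 tested in DOCA–HS, Treml1 at 1.92 and Pf4 at 1.72, and for 0 of 5 in AngII. Of the neutrophil markers, 1 of 8 passed in DOCA–HS, Ngp at −3.27. Without DOCA–HS after replicate 2, Treml1 (0.88) and Pf4 (1.32) no longer passed, Ngp was at −4.42 and passed, and Itgb3 and Camp passed in addition. Without that library, the DOCA–HS medians were −0.01 for the mitochondrial list, 0.57 for iron and heme handling, 0.18 for the regulators and −0.30 for the erythroid markers, and 0 genes of these lists passed. The monocyte, T cell and B cell lists held 0 past the criterion in either model. The 6 hepatocyte markers summed to 0 or 1 counts in the 4 before libraries and to 8 to 20 in the 4 after libraries, too few to be tested. Liver makes much heme, and the part of these few counts, or of the route of sampling, in the enzyme values was not tested.

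The genes most like each member were found by Pearson's r of log2 CPM (TMM) over the 8 libraries among 7994 genes, as a description in which all points share the libraries and their depth. For Alas2 these were Psmd4 (r = 0.996), Iscu (0.995) and Psmd8 (0.994), with 0.90, 0.74 and 0.95 on total counts. Iscu encodes the scaffold on which iron-sulfur clusters are built, and Psmd4 and Psmd8 subunits of the proteasome. For Fech they were the ribosomal protein gene Rps16, Eef1d and Nrdc (all 0.99), but on total counts their r with Fech was 0.07, 0.34 and −0.14, so the likeness held on the TMM scale only. For Alad they were Cd52, Rplp0 and Fam229a (all 0.99), with 0.91, 0.50 and 0.89 on total counts, and for Cpox Anp32e, Vps28 and Wwp2 (all 0.99), with 0.65, 0.78 and 0.81.

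The remaining members had likenesses that held on both scales. Urod went with Wipi2, Rbm38 and Ypel3 (0.98 to 0.99, and 0.96 to 0.97 on total counts), and Blvrb with Tmie, Tfdp2 and Rab10 (0.98 to 0.99, and 0.95 to 0.98). Uros went with B2m, Tcf19 and Card19 (0.97 to 0.98, and 0.92 to 0.98), and Ppox with Sh2d4a, Anapc2 and Rnf25 (0.97 to 0.98, and 0.83 to 0.98). Hmox1 went with Soat1, Arsb and Prdm1 (all 0.99, and 0.98 to 0.99), with r between 0.91 and 0.96 without DOCA–HS after replicate 2. No member was among the 3 genes most like another member.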

How the data were processed

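Whole blood RNA was sequenced and, per the labels and the study's methods, the authors aligned reads to rn6 with HISAT2 and counted them per gene with HTSeq in reverse-strand, intersection non-empty mode. The labels name the NEBNext Ultra II kit and the methods its directional form. The authors state that hemoglobin annotations were removed, but Hbb and LOC100134871 hold most deposited counts, the unit used here, and are kept in library totals. The table had 0 columns beyond the 8 libraries.

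Counts were tested with edgeR 4.0.16 (filterByExpr, TMM, quasi-likelihood test) in R 4.3.3 within each model (4 libraries), or over all 8 for the average, the difference and the contrasts between models. A gene passed with an unadjusted p of at most 0.05 and a log2 fold change past 1.5 in either direction, the study's criterion, and Benjamini-Hochberg adjustment ran over all genes tested. Each SE was back-calculated as the absolute log2 fold change over the square root of the test's F value. Replicates differed by far more than sampling noise (chi-square per degree of freedom 15.4 to 94.6). DESeq2 1.42.0, limma-voom 3.58.1, other scalings and filters, a replicate block and each library left out were alternatives. Scripts were tested on simulated data. Named were the 9 members, the 2 genes of each list with the lowest p per model and any that passed (Bach1, Eif2ak1, Klf1 and the remaining enzymes by role, after their values were seen), and the 3 genes most like each member (log2 CPM, prior count 2). Some genes of the lists are not reported here. The members and lists were chosen with earlier results of these data known.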

Additional observations from a re-analysis of the deposited data

Results flagged for a closer look

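For 2 of the 9 members, the change after CMG met an unadjusted p of at most 0.05 in the test between the models. Of the 7994 genes tested, 3.74% met that p (edgeR). Alad differed by 2.20 on the log2 scale (DOCA–HS change minus AngII change), and Uros by 1.47, each with an edgeR adjusted p of 0.881. With total-count scaling the differences were 0.58 and 0.36, and neither met that p. Without DOCA–HS after replicate 2 they were 1.02 for Alad and 1.36 for Uros. Leaving out each library in turn gave 1.02 to 3.07 for Alad and 0.98 to 2.13 for Uros. Whether either member met that p depended on which library was left out, and each such fit leaves 1 library in a group.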

How the results depend on the processing

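In the AngII model, Uros and Cpox reversed with total counts (0.020 and 0.013), counts outside hemoglobin (0.047 and 0.011) and hemoglobin scaling (0.004 and 0.011). Leaving out 1 library gave ranges of −1.33 to 0.16 for Alad, −0.95 to 0.25 for Uros, −1.40 to 0.16 for Urod, −0.85 to 0.090 for Cpox, −1.53 to 0.45 for Ppox and −0.31 to 1.52 for Hmox1, with 0 to 1 members past the criterion. In DOCA–HS, reversals with total counts were Alas2 −0.31, Urod −0.69, Cpox −0.19, Ppox −0.25, Fech −0.045 and Blvrb −0.56 (median −0.19), with hemoglobin scaling Alas2 −0.47, Urod −0.85, Cpox −0.36, Ppox −0.37, Fech −0.25, Hmox1 −0.017 and Blvrb −0.71 (median −0.36), and with counts outside hemoglobin Urod −0.12 and Blvrb −0.028. These 3 scalings, an adjusted p under 0.05 and a minimum of 10 counts per library left 0 members past the criterion. DESeq2 gave 2 (Alad and Fech), where 219 of the 7720 genes tested passed. A log2 fold change beyond 1 also gave 2 (Alad and Uros), and genes beyond that fold were not counted over all genes. Leaving out 1 library gave 0 to 4, with ranges of −0.13 to 1.59 for Alas2, −0.38 to 1.13 for Urod, −0.21 to 2.20 for Fech, −7.00 to 1.06 for Hmox1 (1 after library with 0 counts, so no bound) and −0.22 to 1.17 for Blvrb. For the difference between the models, 0 passed with total counts or counts outside hemoglobin (medians −0.20 and 0.37). With DESeq2 size factors 2 passed (254 of the 7994 genes tested), with no low-count filter 2 (577 of 11692) and with DESeq2 3 (312 of 7994). Leaving out 1 library gave medians of 0.49 to 1.90, with ranges of 1.02 to 3.07 for Alad and 0.98 to 2.13 for Uros. For DOCA–HS against AngII after CMG, the median was −0.36 with total counts, and leaving out 1 library gave medians of −0.32 to 1.11 and 0 to 4 members. The lists without DOCA–HS after replicate 2 were added after the data were seen. The cause of these moves was not tested.

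Counts over all genes moved by more than 1.5 times with total counts, from 89 to 222 in AngII (73.0% to 94.6% of them above 0) and from 158 to 9 in DOCA–HS (87.3% to 0%). Hemoglobin scaling gave 213 (94.4%) and 5 (0%) and counts outside hemoglobin 238 (94.5%) and 32 (62.5%). Without a low-count filter 201 passed in AngII and 268 in DOCA–HS, and 22 and 32 with a minimum of 10 counts per library, where Hmox1 could not be fitted in either model. Leaving out 1 library gave 123 to 403 in AngII and 28 to 1712 in DOCA–HS. For the difference, 253 became 32 with total counts (71.1% to 6.25% above 0), 164 outside hemoglobin (8.54%), 577 without a filter, 454 with the block and 72 to 1922 with 1 library left out. Total counts, counts outside hemoglobin and no filter gave 15, 21 and 120 against 26 for the average, 45, 284 and 146 against 67 for the models before CMG, and 20, 70 and 211 against 112 after it, and leaving out 1 library gave 39 to 81, 72 to 115 and 71 to 1496 (the highest without DOCA–HS after replicate 1). With replicate number as a replicate block, Alad in DOCA–HS was at 1.53 and passed and no other member passed, 105 genes passed in AngII and 141 in DOCA–HS, and adjusted p fell under 0.05 for 165 and 0 genes. Same-numbered libraries deviated together (r = 0.47 over 7201 genes in AngII and 0.32 over 7720 in DOCA–HS), but with 2 pairs and no label for the number they were not taken as paired. Hmox1, at 0 to 45 counts, is limited by depth.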

Other observations

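In each of the 4 groups, replicate 1 had a higher level in total-count CPM than replicate 2 for Alad, Uros, Urod, Ppox and Blvrb, 5 of the 9 members. Ppox in replicate 1 was 2.23 times replicate 2 in AngII before, 2.57 times in AngII after, 1.82 times in DOCA–HS before and 3.16 times in DOCA–HS after. For Uros these ratios were 1.90, 1.49, 1.75 and 3.43. Over the 7403 genes with a mean of at least 10 counts, 13.7% were higher in replicate 1 of all 4 groups and 0.351% lower in all 4. Alas2 split evenly, higher in replicate 1 in 2 of the 4 groups. What the number marks is not given in the labels, and replicate 1 had the larger total count in 3 of the 4 groups, AngII after being the exception.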
